A study of Mus musculus with 2 samples.

Results

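Glycolysis genes were followed through mouse bone marrow cultures exposed to heme, using the single-cell transcriptomes of 10 cultures. The 9 genes were taken by name from a list of glucose uptake and glycolysis genes, and not from their values: Slc2a1, Hk2, Pfkl, Aldoa, Gapdh, Pgk1, Eno1, Pkm and Ldha. The choice was made with earlier results of these data known. All 9 were present in both matrices, out of 26124 genes in each. Bone marrow was taken from C57BL/6 mice aged 8 to 10 weeks, for which no genetic change was named, and cells of mature lineages were depleted from it. The remaining progenitors were grown in all cultures with the growth factor GM-CSF at 20 ng/ml, which yields neutrophils, dendritic cells and macrophages. On day 3 the heme cultures received 300 μM heme-albumin, and the control cultures received albumin alone. Each of the 2 libraries (control and heme) pooled 5 cultures, which antibody-borne hashtags marked as day 0, 3, 4, 5 or 7. Days 0 and 3 preceded the exposure, so a difference between the libraries on these days was not a response to heme. Whether these early cells were grown separately for each library was not described, nor was the number of mice.

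Glycolysis splits glucose to pyruvate in the cytosol and yields ATP without oxygen. Myeloid cells rely on it heavily: neutrophils have few mitochondria, and dendritic cells and inflammatory macrophages raise it when they are activated. Several of its genes are targets of the hypoxia-inducible factor HIF-1, while the pentose phosphate pathway, whose enzymes include targets of the antioxidant factor NRF2, draws on the first intermediate made from glucose. Slc2a1 encodes GLUT1, a glucose carrier of the plasma membrane. Hk2 encodes hexokinase 2, which traps glucose as its phosphate, and Pfkl encodes the liver type of phosphofructokinase, the main point of control. Aldoa (aldolase A) splits the hexose, Gapdh and Pgk1 carry out the oxidation and the first step that yields ATP, Eno1 (enolase 1) and Pkm (pyruvate kinase M) lead to pyruvate, and Ldha (lactate dehydrogenase A) turns pyruvate into lactate.

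The 9 genes lie on 6 chromosomes. The annotation of mouse build GRCm38 placed Slc2a1 on chromosome 4 from 119108711 to 119137983 (plus strand), Hk2 on chromosome 6 from 82725025 to 82774454 (minus) and Pfkl on chromosome 10 from 77986947 to 78010083 (minus). It placed Aldoa on chromosome 7 from 126795234 to 126800751 (minus), Gapdh on chromosome 6 from 125161715 to 125166467 (minus) and Pgk1 on chromosome X from 106187100 to 106203699 (plus). It placed Eno1 on chromosome 4 from 150236721 to 150248879 (plus), Pkm on chromosome 9 from 59656368 to 59679375 (plus) and Ldha on chromosome 7 from 46841475 to 46855627 (plus). Aldoa, Gapdh, Pgk1 and Ldha each have 2 annotated pseudogenes that carry their name, and Eno1 has the near copy Eno1b, so their counts are less certain where reads could match a copy.

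The promoters were searched on both strands for letters that transcription factors of hypoxia, oxidative stress and growth are known to read, in the 250 bases before the RefSeq start of transcription (build GRCm38.p6). ACGTG or GCGTG, the core of the hypoxia response element, was found in 7 of the 9 promoters and in 38.6% of the 32851 mouse promoters searched. ACGTG was found in 4 of the 9 (16.6% of all promoters) and GCGTG in 4 of the 9 (28.2%). Aldoa and Pkm held neither at the start searched. Only 1 start per gene was searched, although 3 were listed for Aldoa and for Eno1 and 2 for Pkm and for Ldha. The 32851 promoters include every start listed. CACGTG, the E-box, contains ACGTG on both strands and was found in 1 of the 9, Ldha (6.02% of all). TGACNNNGC, the core of the antioxidant response element, was found in 0 of the 9 (10.2% of all). A match gives letters only, and no binding was measured.

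Of the 4 promoters below, Slc2a1, Gapdh and Ldha belong to genes whose levels differed most between days or between libraries, and Pkm is shown beside them as the gene with the highest ratio of heme to control on day 7. They are read 5′ to 3′ on the strand of the gene, from chr4:119108495-119108744 (plus), chr6:125165774-125166023 (minus), chr7:46845554-46845803 (plus) and chr9:59656326-59656575 (plus). All 4 windows lie wholly (Gapdh, Ldha) or in part (Pkm, Slc2a1) inside the gene span given above, which begins at a start further upstream than the RefSeq start used. Capitals mark the hypoxia cores and the E-box on either strand, so that a match on the opposite strand stands as its reverse complement. Slc2a1 held them 61 and 36 bases before its start, Gapdh 54 and 44 bases, and Ldha 145, 48 and 34 bases.
Slc2a1: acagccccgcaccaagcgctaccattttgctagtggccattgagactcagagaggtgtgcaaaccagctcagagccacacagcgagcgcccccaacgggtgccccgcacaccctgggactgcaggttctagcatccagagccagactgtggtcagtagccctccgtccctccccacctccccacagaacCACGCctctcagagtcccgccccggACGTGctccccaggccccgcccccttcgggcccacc
Gapdh: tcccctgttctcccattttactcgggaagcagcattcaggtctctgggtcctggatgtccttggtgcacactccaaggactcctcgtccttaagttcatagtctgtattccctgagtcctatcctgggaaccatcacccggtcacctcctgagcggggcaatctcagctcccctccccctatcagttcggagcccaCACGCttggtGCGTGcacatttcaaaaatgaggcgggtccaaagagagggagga
Ldha: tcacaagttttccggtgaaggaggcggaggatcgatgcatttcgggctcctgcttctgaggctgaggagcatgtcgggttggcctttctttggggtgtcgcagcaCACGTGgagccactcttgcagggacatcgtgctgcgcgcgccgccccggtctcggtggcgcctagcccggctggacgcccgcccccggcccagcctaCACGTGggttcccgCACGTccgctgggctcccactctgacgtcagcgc
Pkm: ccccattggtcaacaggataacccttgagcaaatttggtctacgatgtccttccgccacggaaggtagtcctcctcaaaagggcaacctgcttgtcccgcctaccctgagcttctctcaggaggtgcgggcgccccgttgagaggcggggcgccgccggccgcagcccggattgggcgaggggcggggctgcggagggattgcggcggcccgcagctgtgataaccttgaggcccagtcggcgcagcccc

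The control library held 13961 barcodes, of which 12050 carried a single hashtag, and the heme library held 17378 and 14164. After limits on genes, mitochondrial and ribosomal protein UMIs per cell, 9253 control cells and 9690 heme cells remained, from 359 (control, day 0) to 2481 (heme, day 4) in a culture. UMIs (unique molecular identifiers, each counting 1 captured molecule) summed to between 2344257 and 32835088 per culture. The control culture of day 0 was the least secure, since only 20.9% of its singlets were kept and 74.8% of them exceeded the ribosomal limit. In the other cultures 59.6 to 90.9% were kept. The libraries shared 112 barcodes, 49 of them singlets in both and 7 with the same day. Levels are given as CPM, the UMIs of a gene scaled to a total of 1000000 gene UMIs in each culture or gate. With 1 library per group no test between groups was possible and no p is given. Each ratio carries an exact 95% interval of its counts, which covers counting error only, and a gene is called higher or lower from 1.5-fold on. The share of all genes with a mean of 10 CPM or more that met the same call is given with the counts. Levels were not compared between genes, because UMIs were read near the 3′ end and not per length.

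Along the culture, most glycolysis genes were higher on day 3 than in the starting cells, stayed near that level to day 5 and reached their highest level on day 7. Between days 0 and 3, 6 of the 9 were called higher in the control library (13.6% of all genes were) and 6 in the heme library (14.7%). Slc2a1, Aldoa, Pgk1, Eno1 and Pkm were among them in both libraries, with Gapdh in the control library and Hk2 in the heme library as the other 1. From day 3 to day 4 and from day 4 to day 5, 0 of the 9 were called in either direction in either library, while 8.63% and 9.84% of all genes were called in the control library and 18.4% and 11.2% in the heme library. Between days 5 and 7 the control library had 3 called higher (Slc2a1, Pfkl and Pgk1, against 5.34% of all genes), and the heme library had 1 (Slc2a1, against 6.17%). In both libraries the median log2 ratio of the 9 between days 5 and 7 was above that of all genes, at 0.51 against 0.02 for control and 0.43 against 0.08 for heme.

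**Figure D1:**
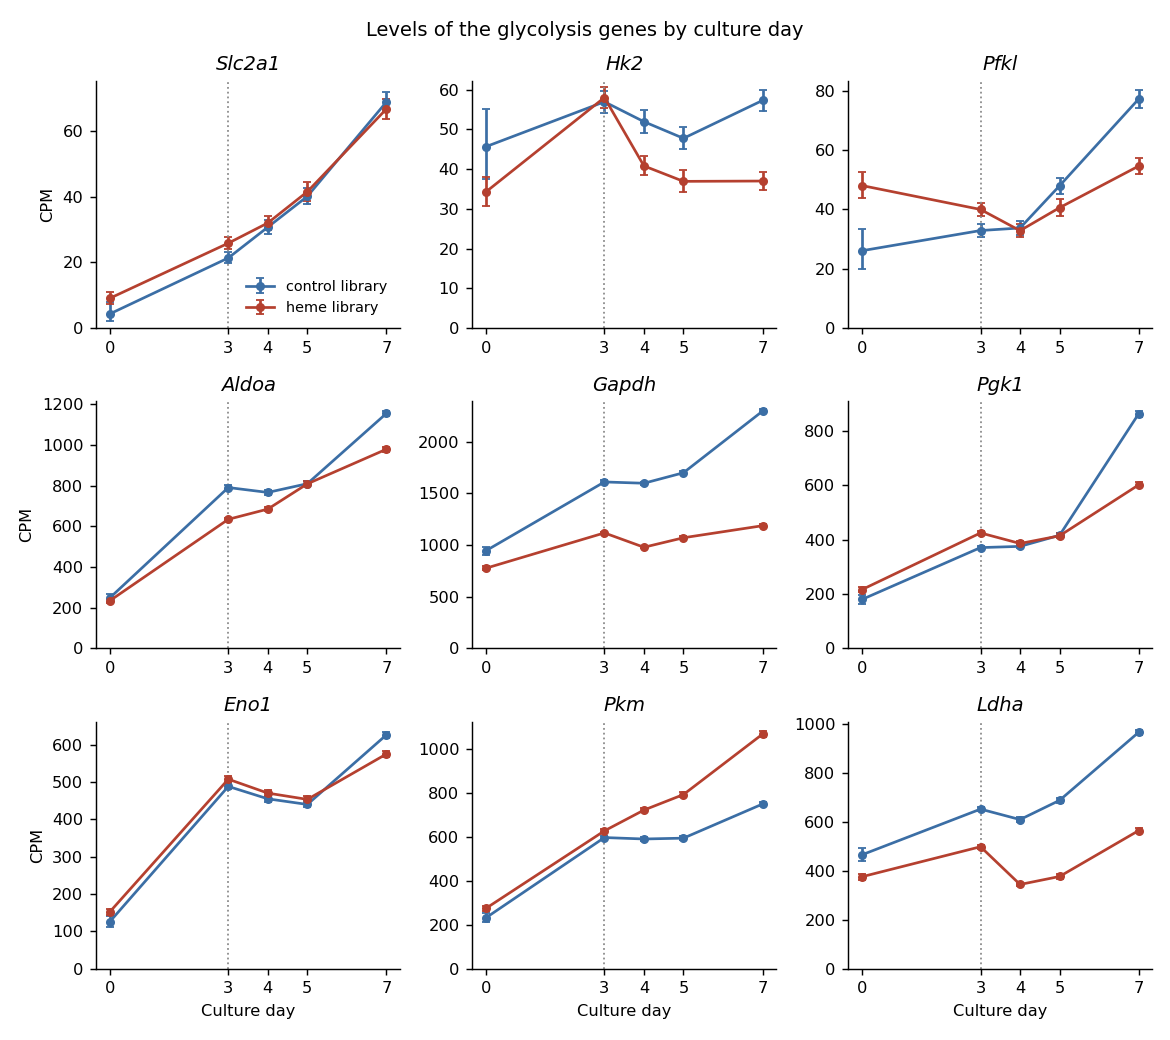
CPM (linear axis from 0) of each of the 9 genes on culture days 0, 3, 4, 5 and 7 in the control library (blue) and the heme library (red); bars are exact 95% counting intervals and the dotted line marks day 3, when heme or albumin was added. The Gapdh and Ldha lines lie apart already on day 3 and most widely from day 4 on, the Pkm lines part over that time with heme above, and the Slc2a1 lines run together up to 66.7 and 68.8 CPM.

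Slc2a1, the glucose carrier among the members, had the steepest course. In the control library it stood at 4.27, 21.3, 30.7, 40.1 and 68.8 CPM on days 0, 3, 4, 5 and 7, and in the heme library at 9.03, 25.8, 32.0, 41.5 and 66.7 CPM. It was higher on each later day than on the one before in both libraries, and the libraries lay close to each other from day 4 on. Day 7 was 3.23-fold (2.95 to 3.53) above day 3 in the control library and 2.58-fold (2.38 to 2.81) in the heme library. The control level of day 0 rested on 10 UMIs.

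Hk2, the hexokinase among the members, followed the other genes least closely after Slc2a1. Its control levels were 45.6, 57.0, 51.9, 47.8 and 57.3 CPM on days 0, 3, 4, 5 and 7, and its heme levels were 34.2, 58.0, 40.8, 36.9 and 37.0 CPM. The libraries were level on day 3 and parted on each day after it. Day 7 in the heme library stood at 0.638 (0.590 to 0.689) of day 3, a call lower that 14.0% of all genes met, and at 1.01 (0.941 to 1.08) in the control library.

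Pfkl, the phosphofructokinase, stood at 26.0, 32.8, 33.7, 47.9 and 77.1 CPM in the control library and at 48.0, 39.9, 32.8, 40.5 and 54.5 CPM in the heme library. The heme library was above control on days 0 and 3 and below it on days 5 and 7. Aldoa, which splits the hexose, stood at 248, 791, 767, 809.6 and 1155 CPM in the control library and at 234, 634, 685, 809 and 979 CPM in the heme library. Its libraries coincided on day 5 and not on day 7.

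Gapdh and Pgk1, neighbours in the pathway, did not run in parallel. Gapdh levels were 944, 1610.4, 1598, 1699 and 2295 CPM in the control library and 775, 1117, 978, 1070.3 and 1187 CPM in the heme library. Its heme level was thus below control on all 5 days, the 2 before exposure included. Pgk1 stood at 180.0, 371, 375, 416 and 863 CPM in the control library and at 216, 425, 386, 414 and 602 CPM in the heme library. Its heme level was above control on day 3, level with it on day 5 and below it on day 7, where control was 2.07-fold (2.03 to 2.12) above its own day 5.

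At the end of the pathway, Eno1 stood at 126, 488, 455, 439.8 and 626 CPM in the control library and at 152, 507, 470.1, 453 and 575 CPM in the heme library, and the libraries stayed near each other throughout. Pkm, which makes pyruvate, stood at 232, 597, 590.2, 594 and 749 CPM in the control library and at 275, 627, 722, 792 and 1067 CPM in the heme library. It was the member whose heme level pulled ahead of control on each day after exposure. Ldha, which makes lactate, stood at 466, 653, 610.4, 689 and 967 CPM in the control library and at 377, 499, 345, 378 and 565 CPM in the heme library. Its heme level was below control on all 5 days.

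Over the whole span from day 3 to day 7, the control library had 3 of the 9 called higher (Slc2a1, Pfkl and Pgk1, against 17.8% of all genes) and 0 lower. The heme library had 3 called higher (Slc2a1, Aldoa and Pkm, against 17.0%) and 1 lower (Hk2). Day 7 against day 3 gave 1.70 (1.67 to 1.73) for Pkm in the heme library and 1.26 (1.23 to 1.28) in the control library. For Ldha it gave 1.13 (1.11 to 1.16) and 1.48 (1.45 to 1.51).

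The comparison of heme with control asked how heme exposure altered these genes at matched culture days. On day 0, 2 of the 9 were called higher in the heme library (28.5% of all genes were), Slc2a1 at 2.12 (1.10 to 4.56) and Pfkl at 1.84 (1.41 to 2.45), before any exposure. The mean level of Slc2a1 on that day lay under the 10 CPM on which the share of all genes rests. On day 3, 0 of the 9 were called in either direction, against 23.3% of all genes higher and 4.28% lower. On day 4, 0 were higher (23.9% of all genes) and 2 lower (9.77%), and on day 5 again 0 were higher (22.1%) and 2 lower (8.51%), Gapdh and Ldha each time. On day 7, 0 were higher (28.8%) and 3 lower (10.5%), with Hk2 as the third. The median log2 ratio of the 9 was 0.06 on day 3, -0.04 on day 4 and -0.50 on day 7, and that of all genes was 0.25, 0.23 and 0.26. With size factors of DESeq2 or TMM scaling the median of all genes on day 7 was 0.02 or 0.01, and the count of members lower was 5, with Pfkl and Pgk1 added, against 18.1% or 18.6% of all genes. On day 3, before exposure, that count was 2 with DESeq2 factors (Gapdh and Ldha, against 14.8% of all genes), 3 with TMM (Aldoa too, against 18.2%) and 1 without ribosomal and mitochondrial genes in the total.

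Gapdh stood at 0.694 (0.684 to 0.703) of control on day 3, before exposure, and at 0.612 (0.603 to 0.622), 0.630 (0.619 to 0.640) and 0.517 (0.510 to 0.524) on days 4, 5 and 7. Ldha stood at 0.764 (0.749 to 0.781) on day 3 and at 0.565 (0.551 to 0.580), 0.548 (0.533 to 0.563) and 0.584 (0.573 to 0.596) afterwards. The greater part of the Gapdh difference was thus present between the libraries before heme was added, and part of the Ldha difference was. Divided by the ratio of day 3, the day 7 ratios were 0.745 (0.731 to 0.760) for Gapdh and 0.764 (0.743 to 0.786) for Ldha, neither of them past 1.5-fold.

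The members past 1.5-fold after that division were others. Hk2 stood at 1.02 (0.953 to 1.09) of control on day 3, at 0.785 (0.725 to 0.851) and 0.773 (0.704 to 0.848) on days 4 and 5 and at 0.646 (0.597 to 0.698) on day 7. Its day 7 value relative to day 3 was 0.634 (0.573 to 0.701). Pgk1 and Pfkl began above control, at 1.15 (1.12 to 1.17) and 1.22 (1.12 to 1.32) on day 3, and ended below it, at 0.697 (0.684 to 0.711) and 0.707 (0.663 to 0.754) on day 7. Relative to day 3 these were 0.608 (0.589 to 0.628) for Pgk1 and 0.581 (0.523 to 0.646) for Pfkl. So each measure alone gave 3 of the 9 lower on day 7, and only Hk2 was lower by both. After the division 8.97% of all genes were lower.

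Pkm went the opposite way. Its ratio of heme to control was 1.05 (1.03 to 1.07) on day 3 and 1.22 (1.20 to 1.25), 1.33 (1.30 to 1.36) and 1.42 (1.40 to 1.45) on days 4, 5 and 7. It did not reach the 1.5-fold limit on any day, and it stayed above 1 under every alternative setting on days 4, 5 and 7. The counts do not separate the M1 and M2 forms of pyruvate kinase, which arise by splicing. Slc2a1 (0.969, 0.910 to 1.03), Eno1 (0.918, 0.899 to 0.938) and Aldoa (0.848, 0.834 to 0.861) lay nearest to control on day 7. The 9 members therefore ran from 0.517 to 1.42 on day 7, and steps next to each other in the pathway differed, with Pkm above control and Ldha below it.

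**Figure D2:**
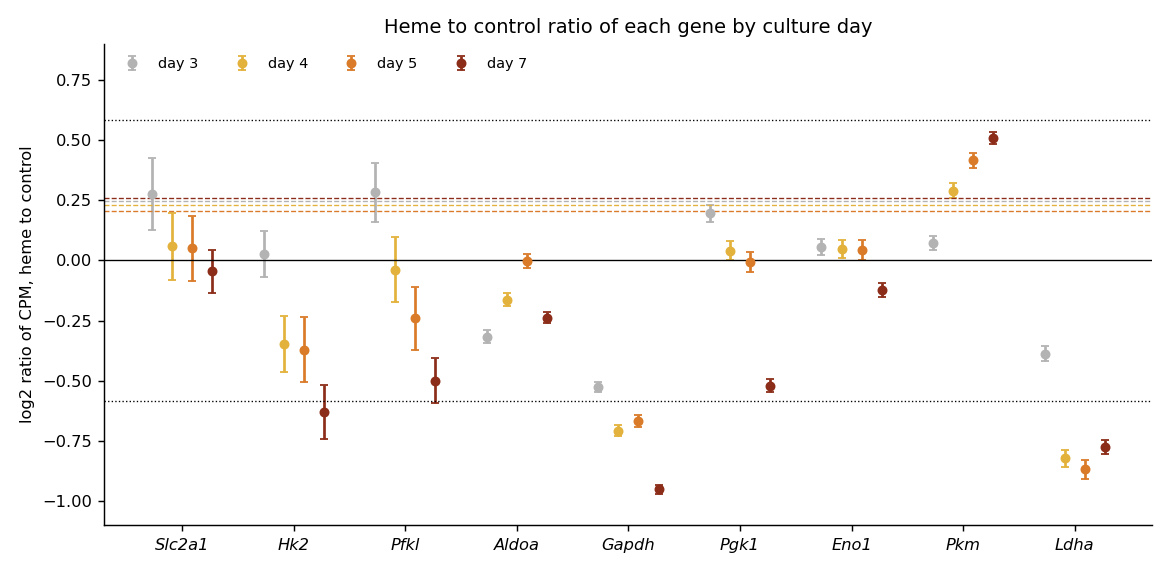
Log2 ratio of CPM, heme to control, for each of the 9 genes on days 3 (grey, before exposure), 4, 5 and 7, with 95% counting intervals; dotted lines mark 1.5-fold, and dashed lines in the colour of each day mark the median of all genes. Gapdh and Ldha lie below 0 on all 4 days, Pkm moves upward from day to day, and Hk2, Pfkl and Pgk1 are lowest on day 7.

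The makeup of the cultures differed beside these ratios. On day 7, the summed CPM of 10 neutrophil markers was 4755 in the control culture and 30737 in the heme culture, that of 10 dendritic cell markers was 12883 and 2717, and that of 10 macrophage markers was 857 and 1549. None of these 30 markers was at 0 in either culture. On day 3 the same sums were 116002 and 131831, 2090.4 and 1789, and 260.4 and 306. Ribosomal protein genes took 21.1% of the control UMIs and 15.7% of the heme UMIs on day 7, and 20.2% and 16.1% on day 3. With ribosomal protein and mitochondrial genes left out of the total, 5 of the 9 were lower in heme on day 7, against 13.2% of all genes. The part of the cell makeup in the ratios was not tested here, apart from the gated cells described below. Together the 9 genes took 0.686% of the UMIs of the control culture on day 7 and 0.513% in the heme culture, against 0.462% and 0.393% on day 3.

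The share of UMIs in the 9 genes was read in single cells as well. In the control cultures of days 0, 3, 4, 5 and 7 the median cell gave 0.224, 0.427, 0.405, 0.435 and 0.613% of its UMIs to them, and in the heme cultures 0.189, 0.373, 0.339, 0.368 and 0.453%. Day 7 was the highest in both libraries, and heme was below control on each day, days 0 and 3 included.

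**Figure D3:**
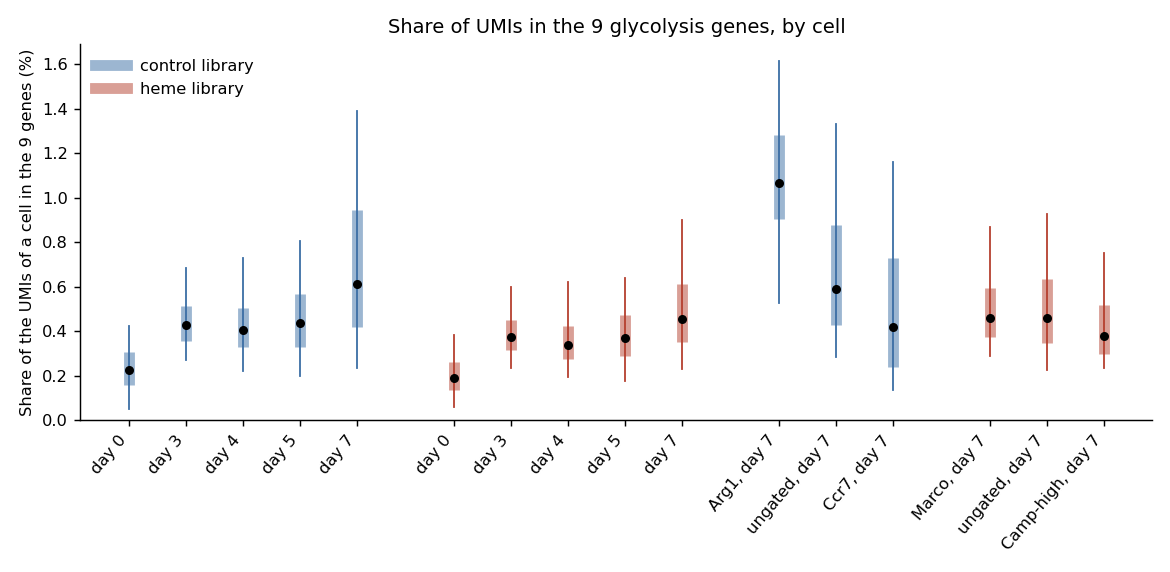
Percent of the UMIs of a cell that fell in the 9 glycolysis genes, for kept cells of each culture (left) and for gated cells of day 7 (right); the dot is the median, the thick bar the middle 50% of cells and the thin line the 5th to 95th percentile. Arg1 cells of the control culture stand highest with a median of 1.06%, and Camp-high cells of the heme culture lowest among the day 7 gates with 0.378%.

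To see where in the cultures these differences lay, cells were gated on 4 genes that were not members. Camp-high cells gave 0.5% or more of their UMIs to Camp, an antimicrobial granule peptide of neutrophils. The other gates took cells with 3 UMIs or more of Arg1 (arginase 1), of Marco (a scavenger receptor of macrophages) or of Ccr7 (the homing receptor of mature dendritic cells), and cells past several gates were left out. The gates were unevenly filled. Camp-high cells numbered 596, 933, 433 and 12 in the control cultures of days 3, 4, 5 and 7 and 868, 1222, 152 and 113 in the heme cultures. Arg1 cells were found in number only in the control culture of day 7 (305 cells), and Marco cells only in the heme culture of day 7 (716). Ccr7 cells numbered 131 and 389 in the control cultures of days 5 and 7 and 90 and 37 in the heme cultures. A level was given from 50 cells on, so Arg1 and Marco cells could be compared between the libraries only with each other.

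The markers fitted the gates in part. Camp, Ccr7 and Marco are themselves among the neutrophil, dendritic cell and macrophage markers, so each of these gates set part of its own sum in advance. Camp-high cells gave 268376 to 351136 CPM to the 10 neutrophil markers. Ccr7 cells gave 20295 to 22451 CPM to the 10 dendritic cell markers. In the control culture of day 7 it was 20295 CPM, against 12711 CPM in ungated cells, which thus held many of these markers too. Marco cells gave 2540 CPM to the macrophage markers, against 839 in ungated cells of the same culture, but the complement genes among them were near 0 (C1qa 1.86 CPM, C1qb 5.58 CPM, C1qc 3.38 CPM). Arg1 cells held markers of several kinds, 5768 CPM of dendritic cell, 3385 CPM of monocyte and 1072 CPM of macrophage markers. Ungated cells of the control culture of day 7 gave 12711, 1085 and 969 CPM to the same markers. Arg1 cells were thus lower in dendritic cell markers, higher in monocyte markers and near ungated cells in macrophage markers. They are called by their gate here.

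Arg1 cells had the highest level of each of the 9 genes among the gates of the control culture of day 7. Slc2a1 stood at 148 CPM in them, at 66.1 CPM in ungated cells and at 13.3 CPM in Ccr7 cells of the same culture. Pgk1 stood at 1645, 766 and 624 CPM, and Ldha at 1533, 979 and 434 CPM. For Slc2a1, Pgk1 and Ldha, Arg1 cells were highest and Ccr7 cells lowest. Of the 9 members, 7 were called higher in Arg1 than in ungated cells (7.32% of all genes were) and 0 lower (5.93%). The ratios were 2.24 (2.04 to 2.46) for Slc2a1, 2.15 (2.09 to 2.21) for Pgk1 and 1.79 (1.63 to 1.97) for Pfkl, and 1.53 to 1.58 for Aldoa, Eno1, Pkm and Ldha. Gapdh lay just under the limit, from 3194 against 2136 CPM, and Hk2 stood at 1.32 (1.18 to 1.49), from 83.2 against 62.8 CPM. With 1 UMI of Arg1 as the gate, 3 of the 9 were called higher. The median UMIs per cell were similar, 13220 in Arg1 and 11919 in ungated cells.

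Ccr7 cells, the highest in dendritic cell markers among the gates of the control culture of day 7, had the lowest Slc2a1 and Hk2. Slc2a3, a second glucose carrier named after its values were seen, was instead lowest in Arg1 cells. It stood at 1.59 CPM (7 UMIs) in Arg1, 5.28 CPM in Ccr7 and 7.03 CPM in ungated cells. Hk2 stood at 9.38 CPM in Ccr7 cells and 62.8 CPM in ungated cells of the control culture of day 7. Of the 9 members, 5 were called lower in Ccr7 than in ungated cells (36.1% of all genes were) and 0 higher (14.5%). Those were Slc2a1 at 0.201 (0.155 to 0.256), Hk2 at 0.149 (0.110 to 0.199), Ldha at 0.444 (0.425 to 0.463), Eno1 at 0.458 (0.434 to 0.484) and Pkm at 0.583 (0.558 to 0.610). Aldoa and Gapdh lay level with ungated cells at 0.967 (0.939 to 0.996) and 1.04 (1.02 to 1.07). Between Arg1 and Ccr7 cells 8 of the 9 were called higher in Arg1 cells (36.1% of all genes were), with Slc2a1 at 11.2 (8.69 to 14.6), Hk2 at 8.86 (6.55 to 12.2) and Gapdh the exception at 1.43 (1.40 to 1.47).

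Within Ccr7 cells the genes differed by day. From day 5 to day 7 of the control library all 9 were called higher (3.86% of all genes were), from 1.72 for Pkm and Ldha to 2.92 (2.07 to 4.25) for Pfkl, apart from Slc2a1 at 1.51 (0.895 to 2.65) and Hk2 at 2.02 (1.01 to 4.48), which rested on few UMIs. Hk2 lay under a mean of 10 CPM here too, so 8 of the 9 meet the level of the share. Against Camp-high cells of day 5, 5 of the 9 were called lower in Ccr7 cells in the control culture (23.7% of all genes) and 5 in the heme culture (24.1%), the same 5 in both: Slc2a1, Hk2, Pfkl, Eno1 and Pkm. Eno1 stood at 132 CPM in Ccr7 and 410.0 CPM in Camp-high cells of the control culture, and at 157 and 464 CPM in those of the heme culture. Hk2 stood at 4.64 and 47.1 CPM in the control culture and at 7.71 and 34.1 CPM in the heme culture. When the 10 neutrophil markers, which reached 268376 CPM or more in Camp-high cells, were left out of the total, 8 of the 9 were lower in the control culture and 9 in the heme culture. That total shifts all genes alike, and 38.8% and 36.9% of all genes were then lower.

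Marco cells, the macrophage marker gate of the heme culture, differed little from the ungated cells around them. On day 7 they stood at 69.9 CPM for Slc2a1, 31.0 CPM for Hk2, 1109 CPM for Gapdh, 1155 CPM for Pkm and 558 CPM for Ldha. Ungated cells of that culture stood at 70.1, 41.7, 1259.8, 1042 and 599 CPM for the same genes. Of the 9, 0 were called higher (4.75% of all genes) and 0 lower (4.75%), with ratios from 0.743 (0.650 to 0.849) for Hk2 to 1.11 (1.08 to 1.14) for Pkm. Against Camp-high cells of the same culture 1 was called higher (39.6% of all genes were), Slc2a1 at 3.94 (2.53 to 6.48) from 69.9 against 17.7 CPM, and 1 lower (17.6%), Hk2 at 0.546 (0.418 to 0.724) from 31.0 against 56.8 CPM. Slc2a1 and Hk2 thus lay on opposite sides in these cells. The carrier Slc2a3 went the other way from Slc2a1, at 3.13 CPM in Marco and 114 CPM in Camp-high cells. The median UMIs per cell were 17106.5 in Marco, 10710 in ungated and 8608 in Camp-high cells. Cells with Marco below the 3 UMIs of the gate could count as ungated, and the part of depth in the likeness was not tested.

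Marco cells of the heme culture and Arg1 cells of the control culture had unlike levels. On day 7, 8 of the 9 were called lower in Marco cells (11.0% of all genes were), from Gapdh at 0.347 (0.339 to 0.356) and Pgk1 and Ldha at 0.364 to Aldoa at 0.585 (0.568 to 0.603). Pkm was the exception, at 1155 CPM in Marco and 1151 CPM in Arg1 cells, a ratio of 1.00 (0.972 to 1.04). This pair differs in gate and in library at once, and their parts in the difference cannot be told apart.

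**Figure D4:**
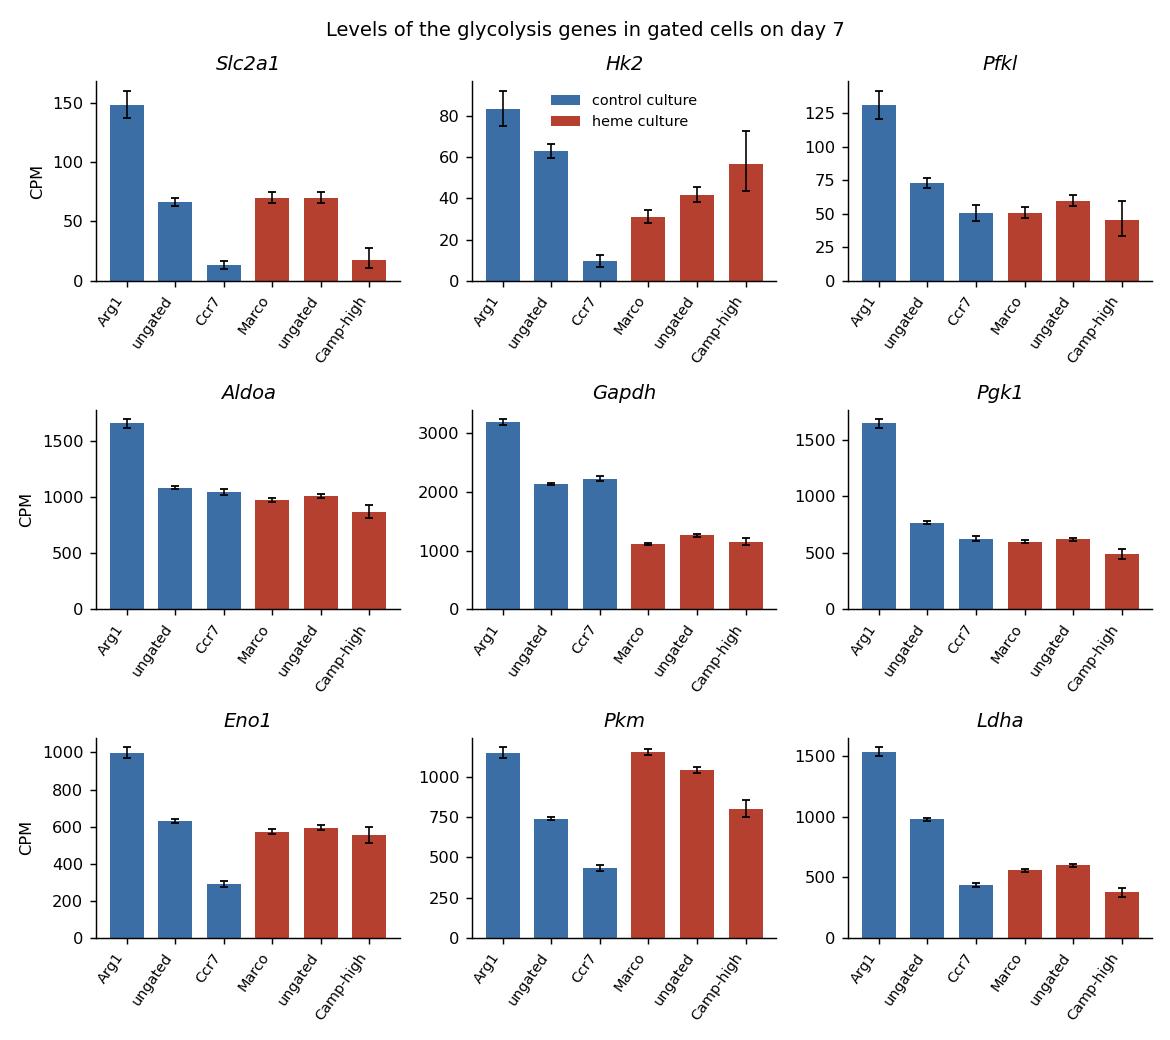
CPM (linear axis from 0) of each of the 9 genes in gated cells of day 7, blue for the control culture and red for the heme culture, with 95% counting intervals. Arg1 cells are highest of the control cells for each gene, Pkm is as high in Marco cells (1155 CPM) as in Arg1 cells (1151 CPM), and Slc2a1 and Hk2 are lowest in Ccr7 cells.

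Within one gate, heme and control cells could be compared on some days. In Camp-high cells on day 3, before exposure, 0 of the 9 were called higher (34.2% of all genes) and 0 lower (2.42%). On day 4, 0 were higher (33.6%) and 1 lower (2.16%), Gapdh at 933 CPM in heme and 1419.6 CPM in control cells, 0.657 of control (0.641 to 0.674). No member was called lower there with Camp at 0.1%, with all singlets or after division by the day 3 ratio. Before exposure, on day 3, it had been 0.786 (0.766 to 0.806). On day 5, 0 were higher (31.8%) and 0 lower (5.59%), with Gapdh at 0.744 (0.698 to 0.792). Ldha stood at 0.895 (0.853 to 0.938), 0.749 (0.714 to 0.786) and 0.910 (0.800 to 1.03) in Camp-high cells on days 3, 4 and 5.

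In Ccr7 cells of day 5, 3 of the 9 were called higher in heme (27.2% of all genes) and 0 lower (7.34%), among them Hk2, whose levels of 7.71 and 4.64 CPM lay under the 10 CPM on which the share rests. Pkm was one, at 425 against 252 CPM and a ratio of 1.69 (1.504 to 1.894), and Slc2a1 at 1.68 (0.873 to 3.25) and Hk2 at 1.66 (0.658 to 4.29) had intervals that reached below 1. In ungated cells of day 7, 0 of the 9 were called higher in heme (26.9%) and 3 lower (10.1%), Hk2 at 0.665 (0.602 to 0.734), Gapdh at 0.590 (0.580 to 0.600) and Ldha at 0.611 (0.596 to 0.627). Pkm stood at 1.40 (1.37 to 1.44) there, near its 1.42 in all kept cells. Pfkl and Pgk1 stood at 0.816 (0.749 to 0.889) and 0.810 (0.789 to 0.832) in ungated cells, nearer to 1 than in all kept cells. Ungated cells themselves differed in markers, with 36071 CPM of neutrophil and 2805 CPM of dendritic cell markers in heme against 5156 and 12711 CPM in control.

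Other genes of glucose use were read from 5 lists in the same way, and only genes with 10 CPM or more are counted. Of 8 other glycolytic enzymes on day 7, 2 were called higher in heme (28.8% of all genes were) and 2 lower (10.5%), with a median log2 ratio of 0.11 against 0.26 for all genes. Pfkp, the platelet type of phosphofructokinase, stood at 94.7 CPM in heme and 207 CPM in control, 0.457 of control (0.436 to 0.478). On day 3 it had stood at 1.26 (1.20 to 1.32). Gpi1, the isomerase between Hk2 and Pfkl, stood at 443 and 673 CPM, a ratio of 0.657 (0.643 to 0.672). The muscle type, Pfkm, lay under the level for counting and is named after its values were seen, at 5.19 CPM in heme and 2.74 CPM in control, a ratio of 1.89 (1.44 to 2.497). Adpgk, a glucokinase that uses ADP, stood at 51.6 and 17.5 CPM and Hk3, a hexokinase of myeloid cells, at 45.2 and 25.3 CPM. Both were higher already on day 3, at 2.24 (2.14 to 2.35) and 1.49 (1.41 to 1.59), and in Camp-high cells of the heme culture of day 7 they stood at 351 and 126 CPM, above the other gates of that day. Of 3 genes of hexose and lactate transport, 0 were higher and 1 lower against the same shares, Bsg (basigin, the partner of the lactate carriers) at 237 against 386 CPM, 0.615 of control (0.597 to 0.634). Its value had been 0.707 (0.681 to 0.733) on day 3. The glucose carrier Slc2a3 lay under the level for counting on day 7, at a ratio of 2.11 (1.77 to 2.52). On day 3, before exposure, it was counted and had stood at 2.14 (1.98 to 2.32). Slc2a6, a hexose carrier among the 3, went the other way on day 7, at 0.725 (0.679 to 0.773), and was not called. Slc2a3 and Slc2a6 are named after their values were seen. Of 11 genes that control glycolytic flux or pyruvate use, 2 were higher and 0 lower, again against 28.8% and 10.5% of all genes, among them Pdk3, a kinase that holds pyruvate dehydrogenase inactive, at 68.2 against 43.2 CPM. The second, Pfkfb4, lay under the level set for naming and is named after its values were seen, at 15.6 against 10.3 CPM and a ratio of 1.51 (1.30 to 1.75).

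HIF-1 and its targets outside glycolysis were the list with the most genes lower. On day 7, 9 of 17 were called lower in heme (10.5% of all genes were) and 1 higher (28.8%), with a median log2 ratio of -0.60 against 0.26 for all genes. On day 3, before exposure, 0 of 14 had been lower (4.28% of all genes) and 4 higher (23.3%). Vegfa, the vascular growth factor, stood at 7.46 CPM in heme and 45.3 CPM in control on day 7, a ratio of 0.164 (0.141 to 0.191), after 16.6 and 13.4 CPM on day 3. Egln3, a prolyl hydroxylase that marks HIF for degradation, stood at 32.3 and 75.6 CPM, after 18.0 and 12.9 CPM on day 3. Ankrd37, another hypoxia target, stood at 13.1 and 43.5 CPM, after 7.40 and 8.11 CPM. These 3 genes were above day 3 in the control culture of day 7, and Vegfa was below it in the heme culture. Arnt, the constant partner of HIF-1, was the 1 called higher, at 29.6 against 17.9 CPM (1.66, 1.49 to 1.85), and stood at 1.53 (1.36 to 1.72) on day 3.

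The same list followed the Arg1 gate. In the control culture of day 7, 13 of its 17 genes were called higher in Arg1 than in ungated cells (7.32% of all genes were) and 0 lower (5.93%), with a median log2 ratio of 1.08 against -0.03 for all genes. Vegfa stood at 119 CPM in Arg1 and 36.7 CPM in ungated cells, Egln3 at 224 and 60.4 CPM, and Ankrd37 at 107 and 36.7 CPM. In Marco cells of the heme culture Vegfa stood at 2.54 CPM, Egln3 at 18.7 CPM and Ankrd37 at 12.6 CPM. Of the other glycolytic enzymes 5 of 8 were higher in Arg1 than in ungated cells, against the same 7.32% of all genes. In Ccr7 cells 11 of 16 genes of the HIF-1 list were called lower than in ungated cells (36.1% of all genes were) and 3 higher (14.5%). In ungated cells of day 7, heme against control, 6 of 17 were lower (10.1% of all genes) and 3 higher (26.9%), with a median log2 ratio of -0.32 against 0.24 for all genes.

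The branches that leave glycolysis were mixed. Of 16 genes of the pentose phosphate pathway, glycogen and serine synthesis, 7 were called higher in heme on day 7 (28.8% of all genes were) and 0 lower (10.5%), with a median log2 ratio of 0.56 against 0.26 for all genes. The other 9 were not called, and Pgls, a further pentose phosphate enzyme named after its values were seen, stood at 195 against 292 CPM, a ratio of 0.669 (0.647 to 0.692). On day 3, 4 were higher (23.3% of all genes) and 1 lower (4.28%). Pgd, the second dehydrogenase of the pentose phosphate pathway, stood at 582 CPM in heme and 199.5 CPM in control, 2.92 times control (2.83 to 3.00). On day 3 it had stood at 1.41 (1.37 to 1.45). Ugp2, which makes the sugar donor for glycogen, stood at 149 and 55.9 CPM (2.66, 2.52 to 2.81). Phgdh, the first enzyme of serine synthesis, stood at 72.5 and 27.4 CPM (2.65, 2.45 to 2.87), after 0.858 (0.824 to 0.892) on day 3. In ungated cells 8 of the 16 were higher (26.9% of all genes) and 0 lower (10.1%). Pgd stood at 621 CPM in Marco cells, 572 CPM in ungated cells and 499 CPM in Camp-high cells of the heme culture, all above the 305 CPM of Arg1 cells in the control culture.

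**Figure D5:**
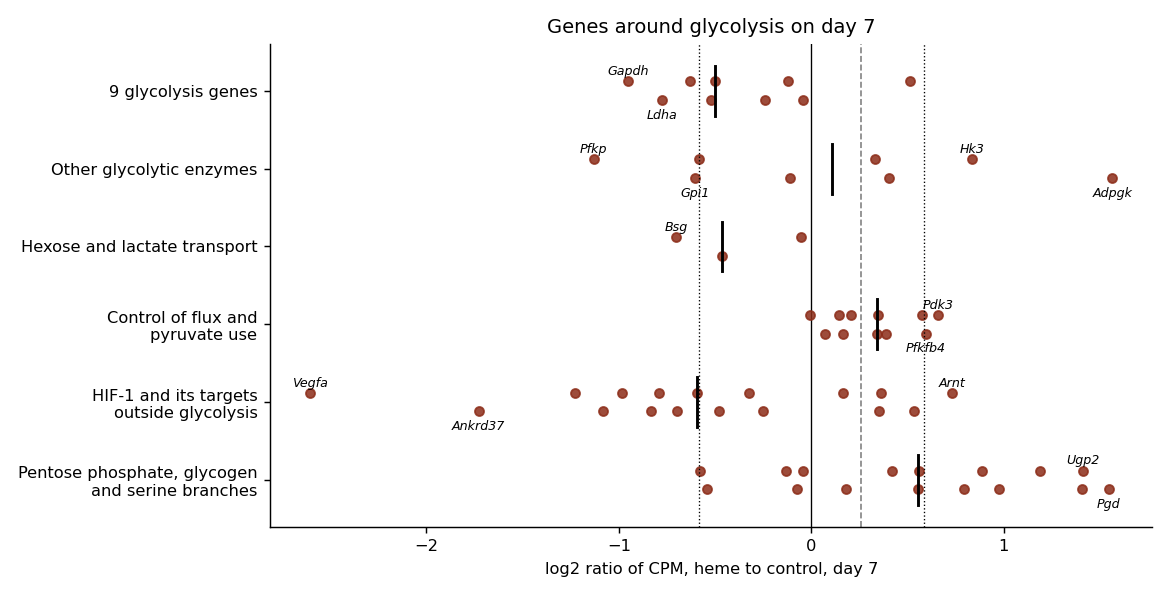
Log2 ratio of CPM, heme to control, on day 7 for each gene with 10 CPM or more of the 9 glycolysis genes and of 5 other lists; each dot is a gene, the black bar is the median of the list, dotted lines mark 1.5-fold and the dashed line the median of all genes. The HIF-1 list has the lowest median (-0.60) and the list of pentose phosphate, glycogen and serine genes the highest (0.56).

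Likeness of course was measured over the 10 cultures as the root mean square difference of log2(CPM + 1), centred per gene, among 2875 genes with a mean of 50 CPM. Pgk1 lay nearest to the mean course of the 9, at 0.156, and Slc2a1 farthest at 0.630, with Hk2 next at 0.481. Of the genes that are no members, Pgam1, the glycolytic mutase between Pgk1 and Eno1, came nearest to that mean at 0.107, followed by Hpcal1 at 0.126, Gm21188 at 0.149, Stx7 at 0.164 and Acaa1a at 0.170. The mutase stood at 752 CPM in heme and 811 CPM in control on day 7, a ratio of 0.926 (0.909 to 0.943). Nearest to Slc2a1 were Ddhd1 (0.230), Ctsl (0.251) and Gngt2 (0.278). Nearest to Hk2 were Vps28 (0.113), Cox7a2 (0.116) and Arpp19 (0.117).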

How the data were processed

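Single-cell transcriptomes of bone marrow cultures were measured in 2 libraries. The authors made the deposited values: raw UMI counts per gene and barcode, with a text call of the hashtag and of singlet, doublet or negative for each barcode. Per the labels and methods, reads were mapped to GRCm38.p6 with Cell Ranger 4.0.0, whereas the matrix headers name 5.0.0, and hashtags were called with Seurat 3.2.3 at a quantile of 0.99. Of the 2 matrix rows named Aldoa, the one of the gene on chromosome 7 given in the text was used.

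Singlets with 500 to 5000 genes, under 15% mitochondrial and under 30% ribosomal protein UMIs were kept, the limits of the methods, whose wording of the mitochondrial and ribosomal shares was read as an upper limit. Doublets were removed by the hashtag call only, so doublets within a day remain. UMIs were summed per library and day, or per gate, and divided by the total (CPM). Ratios have exact 95% intervals of 2 Poisson counts, checked on simulated data. No test between groups was made. Python 3.11.15, numpy 2.4.6, scipy 1.17.1, pandas 2.3.3 and, for TMM factors, edgeR 4.0.16 in R 4.3.3 were used. The design text and the labels give different times for 1 culture, so culture days are used. The labels tie no sample to an animal or a separate culture within a library, and intervals cover counting error only.

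The members, lists, gates and tests were chosen with earlier results of these data known. All 9 members are named. Of each other list, up to 3 genes with the highest and 3 with the lowest day 7 ratio are named, among those past 1.5-fold with 20 CPM or more in either culture. All 9 promoters were matched by symbol. The alternatives were other limits on cells, other scalings, other gates, a 2-fold call, a mean over cells and a division by the day 3 ratio.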

Additional observations from a re-analysis of the deposited data

Results flagged for a closer look

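Scaled as CPM, Aldoa moved in opposite directions in the 2 libraries between days 3 and 4, the first day of exposure. The ratio of day 4 to day 3 was 1.08 (1.06 to 1.10) in the heme library, from 634 to 685 CPM, and 0.969 (0.951 to 0.988) in the control library, from 791 to 767 CPM. The difference was not tested, since each group was 1 library. Both ratios lay far inside the 1.5-fold limit. Over the alternative settings the log2 ratio of the control library changed sign, from -0.13 to 0.025. That of the heme library stayed positive, from 0.0046 to 0.21. Measured from the median of all genes, Aldoa rose in both libraries, by a log2 ratio of 0.07 (control) and 0.24 (heme). The opposite direction thus depended on the scaling.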

How the results depend on the processing

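No paired analysis was possible because each group was 1 library, and for the same reason no replicate could be left out. Of the counts of members called, 266 stayed within 1.5 times of the value given and 32 did not. Of the single log2 ratios of members, 726 moved by less than their counting interval and 615 by more. Among the comparisons for which alternatives were run, no called member turned its direction. No alternatives were run for day 0 of heme against control, for Ccr7 cells between days or libraries, or for Arg1 against Ccr7 and Marco against Arg1 cells, and Ccr7 against Camp-high cells had only the total without neutrophil markers.

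Heme against control, the count of members lower on day 3 was 2 with DESeq2 size factors, 3 with TMM factors and 1 without ribosomal and mitochondrial genes in the total, where it was 0 before. On days 4 and 5 it was 0 with a 2-fold call and 0 after division by the day 3 ratio. On day 7 it was 5, 5 and 5 under these 3 scalings and 0 with a 2-fold call. In Camp-high cells of day 4 it was 0 with Camp at 0.1%, with all singlets, and after division by day 3, and 1 was higher with Camp at 1%. On day 5, 1 was higher there with all singlets.

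Marco against Camp-high cells, 2 were higher with a gate of 1 UMI, 2 when cells past several gates counted in each, 3 without ribosomal and mitochondrial genes and 2 as a mean over cells. Arg1 against ungated cells, 3 were higher with a gate of 1 UMI. Along the control course, 1 was higher on day 4 with DESeq2 factors, 1 on day 5 as a mean over cells, 5 on day 7 without ribosomal and mitochondrial genes, and 6 from day 3 to day 7 as a mean over cells. Along the heme course, 1 (all singlets), 2 (without those genes) and 1 (mean over cells) were lower on day 4, 0, 3 and 3 were higher on day 7, and 0 were lower from day 3 to day 7 as a mean over cells. The cause of these shifts was not tested.

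The log2 ratio on day 7 ran over the settings from -1.20 to -0.42 for Gapdh, from -1.03 to -0.39 for Ldha, from -0.88 to -0.54 for Hk2 and from 0.26 to 0.58 for Pkm. It crossed 0 for Slc2a1 (-0.32 to 0.09) and Aldoa (-0.49 to 0.08). Ungated cells, Ccr7 cells of day 5, day 7 against day 3, the total without neutrophil markers and the course without a ribosomal limit were chosen after seeing the data. With 1 library per group, depth sets only the counting intervals.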

Other observations

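Singlets with more than 5000 genes were left out of the levels above, and they were far more frequent in the heme library, at 16.4 to 33.9% of singlets on days 3 to 7 against 4.82 to 8.34% in the control library. The summed level of the 9 glycolysis genes in these cells, relative to the kept cells of the same culture, was 1.17 (1.16 to 1.18) on day 3, 1.22 (1.21 to 1.23) on day 4, 1.03 (1.02 to 1.04) on day 5 and 0.997 (0.9899 to 1.005) on day 7 of the heme library, the last over 756 cells. In the control library it was 1.16 (1.14 to 1.17), 1.20 (1.18 to 1.21), 1.08 (1.07 to 1.09) and 0.925 (0.914 to 0.935), the last over 151 cells. On day 0 of the heme library it was 0.933 (0.914 to 0.953), over 244 cells. In both libraries the value was above 1 on days 3, 4 and 5.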
